A study of Mus musculus with 8 samples.

Results

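The strongest constitutive C/EBPα sites of mouse liver were the 2334 genomic sites that held a peak in each of 8 ChIP-seq peak lists and belonged to the strongest 10% of every list. They were 2.06% of the 113353 sites found in any list and 9.60% of the 24318 sites called in all 8. The sites were selected on signal: the deposited 200 bp peaks were joined into sites where they overlapped by at least 1 bp, the signal of each peak was turned into a percentile within its own list (100 is the strongest), and a site was kept when it reached at least 90 in all 8 lists. Their percentiles are therefore given as a description, without a test. Tests were made where a list had no part in the choice of sites, or on peak positions, which the choice did not use. Shares read in a left-out list still come from the same percentiles of the 8 lists that the rule used.

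The libraries came from livers of C57B/6 mice aged 8 to 10 weeks and fasted for 4 hours, and were made with the C/EBPα antibody sc-61. In Trib1_LSKO (n = 2 libraries), mice with a floxed Trib1 gene, which encodes a pseudokinase, received 1.5e11 gc (genome copies) of an adeno-associated virus (AAV) coding for Cre recombinase, and in Trib1_WT (n = 2) floxed mice received the same dose of the empty vector AAV_Null. In AAV_Cebpa (n = 2), wild-type mice received 1e12 gc of a vector coding for C/EBPα, and in the group AAV_Null (n = 2) wild-type mice received that dose of the empty vector. Every animal had thus received an AAV, by intraperitoneal injection. Neither the promoter of the vectors nor the number of animals behind a replicate is given in the sources used here. A p-value below therefore measures the spread between libraries, which may be technical. In whole liver, binding in fewer cells and weaker binding per cell cannot be told apart. Peak lists carry no transcript levels, so the tissue, the loss of Trib1 and the amount of C/EBPα were not checked.

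C/EBPα is a basic leucine zipper transcription factor that binds DNA as a dimer and is abundant in hepatocytes, where it is known for control of genes of glucose and lipid metabolism. It can also pair with other C/EBP family members, which bind similar DNA. Tribbles-1, the product of Trib1, is known to promote degradation of C/EBPα through the ubiquitin ligase COP1.

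The 8 lists differed in length and depth. They held 50075 and 53072 peaks in Trib1_LSKO, 53327 and 54691 in Trib1_WT, 59564 and 80394 in AAV_Cebpa, and 46348 and 49052 in AAV_Null. Signal values were whole multiples of a fixed step in each list, and the inverse of that step gave depths relative to AAV_Null replicate 1 of 1.18 and 1.28 in Trib1_LSKO, 1.14 and 1.93 in Trib1_WT, 1.85 and 2.27 in AAV_Cebpa, and 1.17 in AAV_Null replicate 2. The multiples are called tags here. Because depth and length move with the groups, above all in AAV_Cebpa, their part in the group differences below was not tested except where lists were cut to the same number of peaks.

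Among sites called in all 8 lists, those strong in every list outnumbered those strong in any other number of lists from 1 to 7. Sites called in fewer lists are left out of that comparison. With them counted, sites strong in exactly 1 list outnumbered those strong in all 8. Of the 24318 sites called in all 8 lists, 15194 reached percentile 90 in none. Sites that reached it in 1, 2, 3, 4, 5, 6 and 7 lists numbered 1653, 1399, 799, 942, 603, 775 and 619, and those that reached it in all 8 were the 2334 selected. In all, 11059 sites reached percentile 90 in at least 1 list. Of those, 9124 (82.5%) were called in all 8 lists, and 2334 (21.1%) were selected. A strong peak in 1 liver library was thus usually a called peak in the other 7, but usually not among the strongest 10% of every one of them.

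**Figure D1:**
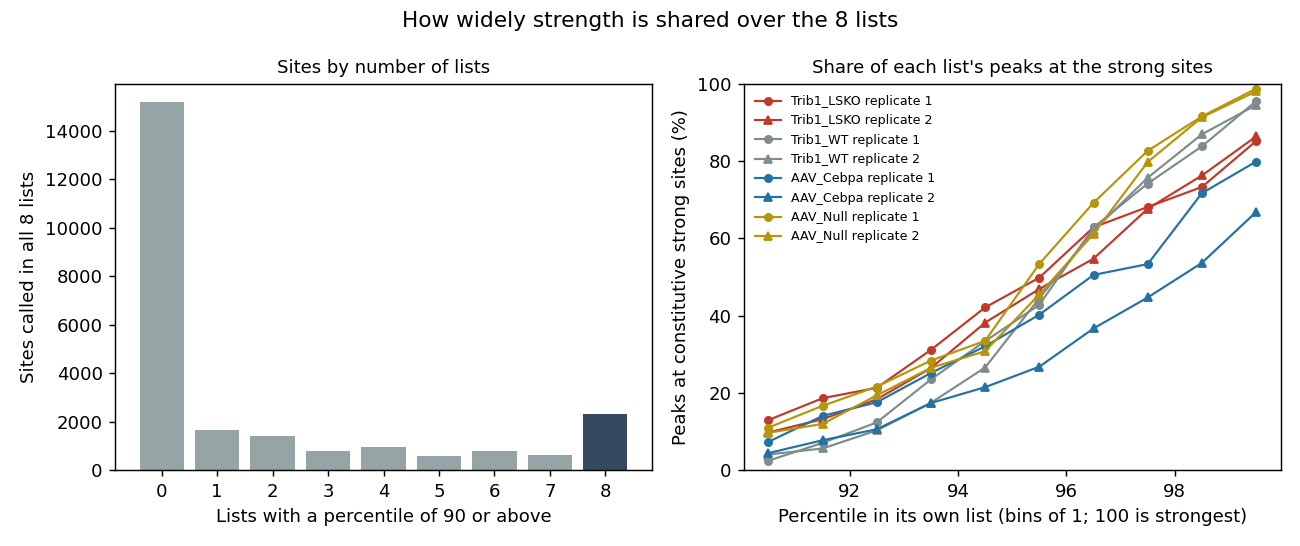
Left, numbers of sites called in all 8 lists by the number of lists in which they reached percentile 90, from 15194 in none to 2334 in all 8, with 603 to 1653 in the classes between. Right, the percentage of peaks that were selected sites in each percentile step from 90 to 100, one line per library: between 2.46% and 13.0% of peaks were selected just above percentile 90, and between 66.8% and 98.7% in the top 1%.

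The same 2334 selected sites were counted in every list's strongest 10%, so their share of it is set by the length of the list. They were 46.2% and 43.6% of those peaks in Trib1_LSKO, 43.4% and 42.8% in Trib1_WT, 39.2% and 29.1% in AAV_Cebpa, and 50.8% and 47.4% in AAV_Null. In the strongest 1% of a list they were 85.1% and 86.3% of peaks in Trib1_LSKO, 95.5% and 94.5% in Trib1_WT, 79.8% and 66.8% in AAV_Cebpa, and 98.7% and 98.0% in AAV_Null. The strongest 1% of peaks in livers given an empty vector were thus nearly all strong in every list. The lowest shares were those of the livers given the C/EBPα vector. A longer list also has more peaks in its strongest 1%, with 461 in AAV_Null replicate 1 and 810 in AAV_Cebpa replicate 2. The part of list length in these shares was not tested.

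Each selected site rested on many tags. Their median was 137 and 159 tags in Trib1_LSKO, 164 and 235 in Trib1_WT, 181 and 255 in AAV_Cebpa, and 167 and 196 in AAV_Null. The other sites called in all 8 lists had medians of 49 and 59 tags in Trib1_LSKO, 52 and 87 in Trib1_WT, 70 and 118 in AAV_Cebpa, and 45 and 58 in AAV_Null. Percentile 90 corresponded to 95 tags in the list where it was lowest and 185 where it was highest. At 95 tags the exact 95% Poisson interval ran from 76.9 to 116, and at 185 tags from 159 to 214, so a site close to the threshold is not firmly on one side of it. For 1351 selected sites (57.9%) the interval lay above the threshold in all 8 lists. These intervals cover counting of tags only.

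Sites on either side of the threshold were alike. The lowest percentile of any selected site, 90.01 in Trib1_LSKO replicate 2, was shared by 14 sites. Those with the lowest mean percentile among them were chr10:27794628-27794842, chr16:20724363-20724583 and chr11:68912314-68912533 (mm9, 1-based). Just outside, 7 sites had 89.98 as their lowest percentile, among them chr1:58667128-58667364, chr2:3613271-3613485 and chr2:167467825-167468046, whose lowest was in AAV_Null replicate 1. A further 619 sites reached 90 in 7 lists and were called below it in the eighth. The list that fell short was Trib1_LSKO replicate 1 or 2 for 108 and 98 of them, a Trib1_WT replicate for 31 and 15, an AAV_Cebpa replicate for 87 and 67, and an AAV_Null replicate for 103 and 110. The Trib1_WT lists were the limiting ones least often.

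The top of the ranking was led by a single stretch of chromosome 1. Site chr1:90175745-90175970 ranked first in all 8 lists. Site chr1:90174046-90174260 ranked 2 and 2 in Trib1_LSKO, 4 and 3 in Trib1_WT, 2 and 3 in AAV_Cebpa, and 3 and 2 in AAV_Null. These were the 2 sites in the top 10 of every list, while 16 sites were in the top 100 of every list and 293 in the top 1000. The third by its lowest percentile was chr6:138088530-138088756, with ranks of 5 and 2 in Trib1_LSKO, 3 and 4 in Trib1_WT, 8 and 23 in AAV_Cebpa, and 4 and 4 in AAV_Null. Site chr12:8439756-8439982 came next and ranked 10 and 9 in Trib1_LSKO, 14 and 17 in Trib1_WT, 7 and 26 in AAV_Cebpa, and 5 and 4 in AAV_Null. Both had their worst ranks, 23 and 26, in the longest list, AAV_Cebpa replicate 2. The next 6 were chr17:45745448-45745665, chr1:90110259-90110465, chr6:115616712-115616948, chr6:116215648-116215876, chr4:63005394-63005611 and chr8:91803875-91804094, whose worst ranks were 33, 37, 44, 46, 50 and 91. No gene was assigned to these sites and no sequence is shown, because a genome and annotation of build mm9 were not used here.

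Strong neighbours of the leading site were not equally steady. Site chr1:90174891-90175101 lies between the leading 2. It ranked 4 and 5 in Trib1_LSKO and 152 and 109 in Trib1_WT. In the second experiment it ranked 3 and 9 in AAV_Cebpa and 1616 and 1516 in AAV_Null. Its ranks were thus better in both libraries of each treated group than in both libraries of the matching control, while the sites on its 2 sides kept theirs. Further upstream in the coordinates, chr1:90166407-90166629 ranked 651 and 364 in Trib1_LSKO, 1592 and 1844 in Trib1_WT, 303 and 348 in AAV_Cebpa, and 1924 and 297 in AAV_Null, where the groups of the second experiment overlapped.

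To ask whether strength in some livers carried over to a liver library that had no part in the choice, sites were chosen by the same rule in 7 lists and read in the eighth. Of 2444 and 2434 such sites, 95.5% and 95.9% were at percentile 90 or above in the Trib1_LSKO lists. Of 2365 and 2349 sites, 98.7% and 99.4% were so in the Trib1_WT lists. The shares were 96.4% and 97.0% in AAV_Cebpa (2422 and 2405 sites) and 95.7% and 95.4% in AAV_Null (2438 and 2447 sites). At most 4 of the chosen sites had no peak in the list left out. The sites at percentile 90 or above in the list left out were in every case the 2334 selected sites. These shares therefore restate the counts of lists that fell short given above, with the sites not called added. Among all sites called in the other 7 lists, whatever their strength, the background was 19.1% and 20.5% in Trib1_LSKO, 20.8% and 21.3% in Trib1_WT, 20.4% and 26% in AAV_Cebpa, and 17.7% and 18.8% in AAV_Null. Every share thus lay far above the background of its list.

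The held-out share averaged 95.7% ± 0.277 in the Trib1_LSKO lists and 99.03% ± 0.475 in the Trib1_WT lists (SD, n = 2 each), a difference of -3.33 percentage points. It was 96.7% ± 0.482 in AAV_Cebpa and 95.6% ± 0.249 in AAV_Null, a difference of 1.15. In neither experiment did the groups overlap. By exact permutation (two-sided), p was 0.333 for each difference, and 2 libraries against 2 cannot give less. With the 4634 strongest peaks of each list (10% of the shortest list) in place of the percentile, the second difference was -3.70, the AAV groups overlapped and the exact permutation p was 1. With 7 choosing lists, the replicate of the list read is always among the choosers, and omitting a library removes that replicate from the choosers of its own group. The sign of the second difference then followed the group that lost a library, with -3.85 or -5.04 without AAV_Cebpa replicate 1 or 2 and 11.5 or 11.2 without AAV_Null replicate 1 or 2. The choice was therefore also made with both libraries of a group left out.

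**Figure D2:**
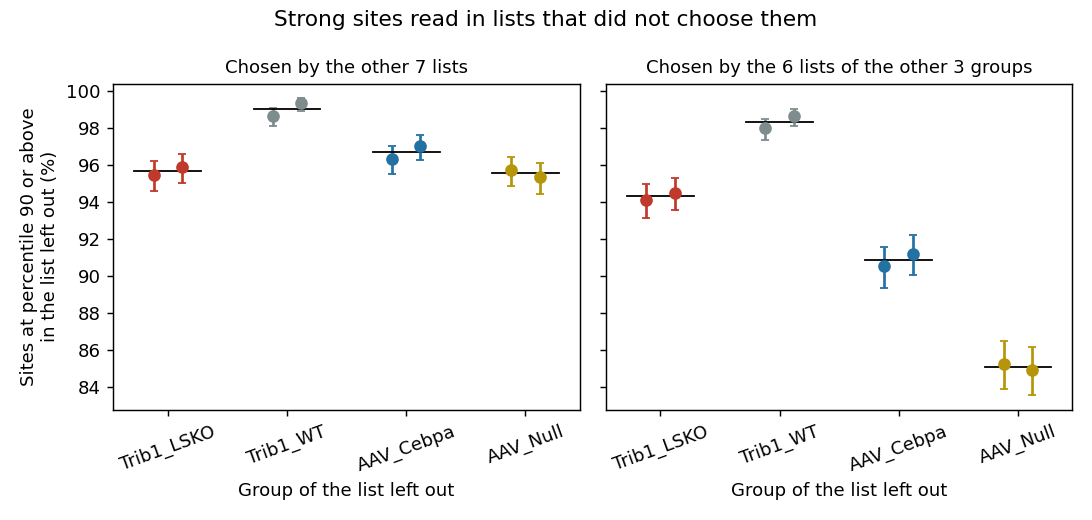
Percentage of chosen sites at percentile 90 or above in a list that had no part in the choice, by group and replicate, with sites chosen by the other 7 lists or by the 6 lists of the other 3 groups; black lines are group means and bars are 95% Wilson intervals that cover counting of sites only. With 7 choosing lists the shares run from 95.4% to 99.4%, and with 6 from 84.9% in AAV_Null to 98.7% in Trib1_WT.

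With both libraries of the group left out, 94.1% and 94.5% of 2586 chosen sites were at percentile 90 or above in Trib1_LSKO, and 98.0% and 98.7% of 2397 sites in Trib1_WT. The shares were 90.5% and 91.2% of 2656 sites in AAV_Cebpa, and 85.3% and 84.9% of 2870 sites in AAV_Null. Trib1_LSKO lay below Trib1_WT by -4.02 percentage points and AAV_Cebpa above AAV_Null by 5.77, each with an exact two-sided permutation p of 0.333. Dropping 1 library from the group means, without choosing the sites again, gave second differences between 5.45 and 6.09. That range thus follows from the shares above and is no further check of the choice. Among all sites called in the 6 choosing lists, whatever their strength, the shares were 18.7% and 19.8% in Trib1_LSKO, 20.4% and 20.7% in Trib1_WT, 18.8% and 22.9% in AAV_Cebpa, and 15.6% and 16.7% in AAV_Null. These background shares differed between the groups in the same directions. With the 4634 strongest peaks of each list, the differences of the chosen sites were -2.10 and -5.01, and the AAV groups overlapped (exact permutation p = 0.667). The Trib1_WT lists had the highest shares in both readings at percentile 90.

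The strongest sites of control livers were then followed into the treated ones. The 4 lists from livers given an empty vector chose 3318 sites. Of these, 85.0% and 89.3% were at percentile 90 or above in the Trib1_LSKO lists and 81.3% and 83.0% in the AAV_Cebpa lists. A background over all sites called in the 4 choosing lists is not given for these shares. In all, 6 and 6 of the sites had no peak in Trib1_LSKO, and 16 and 20 had none in AAV_Cebpa. In AAV_Cebpa the mean share was 82.1% by percentile and 72.0% with the 4634 strongest peaks of each list.

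In the other direction, the 4 treated lists chose 3473 sites. Of these, 85.8% and 84.7% were at percentile 90 or above in Trib1_WT and 73.2% and 73.1% in AAV_Null. In the AAV_Null lists 53 and 80 of them had no peak and 89 and 100 lay below percentile 50, whereas of the 3318 sites above, 4 and 0 lay below percentile 50 in AAV_Cebpa. Sites strong in control livers were thus nearly all still called after the C/EBPα vector, and more of the sites strong in treated livers were weak or absent in AAV_Null. The difference between these directions was not tested, and no background over all called sites stands beside either. The AAV_Cebpa lists are the longest and the AAV_Null lists the shortest.

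Within the selected sites, the percentiles of the groups were set side by side. Both Trib1_LSKO percentiles lay above both Trib1_WT percentiles at 265 sites (11.4%), against a background of 19.5% of all sites called in all 8 lists, and below them at 832 (35.6%), against 36%. Both AAV_Cebpa percentiles lay above both AAV_Null percentiles at 669 sites (28.7%), against 38.4%, and below them at 822 (35.2%), against 29.7%. The selection at percentile 90 leaves little room above, and nothing is read from these counts. With the percentile taken among the 24318 sites called in all 8 lists, the AAV_Cebpa counts were 450 above (19.3%, against 30.9% of all these sites) and 1118 below (47.9%, against 41.1%). The Trib1_LSKO counts on that scale were 326 above (14.0%, against 22.2%) and 730 below (31.3%, against 31.1%).

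The rule keeps each selected site in the strongest 10% of every list, which caps its differences between groups. Larger differences were found at the other sites called in all 8 lists. For Trib1_LSKO minus Trib1_WT, 5% of those other sites had a difference of 22.1 or more. For AAV_Cebpa minus AAV_Null, 5% of them had 45.3 or more. Among the selected sites, the largest differences of mean percentile, Trib1_LSKO minus Trib1_WT, were 8.23 at chr6:115461551-115461842, 6.52 at chr18:62184852-62185101 and 6.37 at chr9:23111256-23111470. The first of them ranked 98 and 890 in Trib1_LSKO and 4468 and 5376 in Trib1_WT, and 34 and 5 in AAV_Cebpa and 2601 and 3596 in AAV_Null. It was therefore near the bottom of the strongest 10% in Trib1_WT, and at rank 34 or better in AAV_Cebpa. The site on chromosome 18 had the largest difference of AAV_Cebpa minus AAV_Null as well, 8.61, with ranks of 691 and 667 in AAV_Cebpa and 4421 and 4671 in AAV_Null. It was followed by chr4:136061830-136062061 with 8.14 and chr7:138400410-138400701 with 7.84.

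In the opposite direction, Trib1_LSKO lay lowest against Trib1_WT at chr16:35455988-35456200 (-5.65), chr2:84887860-84888105 (-5.43) and chr17:86327885-86328112 (-5.32). AAV_Cebpa lay lowest against AAV_Null at chr9:66545569-66545783 (-6.83), chr11:108246695-108246914 (-6.74) and chr3:96067222-96067468 (-6.62). The last of these ranked 4509 and 6512 in AAV_Cebpa and 549 and 676 in AAV_Null. These sites are the extremes of 2334 and their differences were not tested.

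Replicates ordered the selected sites alike. The median gap between the 2 replicates' percentiles was 0.920 in Trib1_LSKO, 0.610 in Trib1_WT, 0.784 in AAV_Cebpa and 0.703 in AAV_Null. Spearman's rho of the percentiles over the 2334 sites, as a description, was 0.806 to 0.868 between replicates. It was 0.731 to 0.813 for Trib1_LSKO against Trib1_WT and 0.425 to 0.532 for AAV_Cebpa against AAV_Null. Between libraries of different experiments it was 0.543 to 0.793. At the other sites called in all 8 lists, rho between replicates was higher, 0.903 to 0.942, while the median gaps were wider, 4.21 to 5.88. All of these points share the same sites and genome, and none is a replicate of a condition.

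The distance in signal between the selected sites and the rest was smallest in AAV_Cebpa. The selected sites held 14.96% and 14.4% of a list's summed peak signal in Trib1_LSKO, 16.2% and 14.3% in Trib1_WT, 12.1% and 8.999% in AAV_Cebpa, and 19.1% and 17.4% in AAV_Null. Their median signal was 2.80 and 2.70 times that of the other sites called in all 8 lists in Trib1_LSKO, 3.15 and 2.71 times in Trib1_WT, 2.58 and 2.16 times in AAV_Cebpa, and 3.72 and 3.38 times in AAV_Null. With sites chosen by the other 7 lists, the ratio was 2.36 ± 0.269 in AAV_Cebpa and 3.50 ± 0.212 in AAV_Null (SD, n = 2 each), a difference of -1.14 (exact permutation, two-sided p = 0.333). The Trib1_LSKO minus Trib1_WT difference was -0.194 (p = 1 in the same exact test). It was 0.0289 without Trib1_WT replicate 1, -0.418 without Trib1_WT replicate 2, and 0.0395 when set against sites at percentile 50 to 90 in every list.

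**Figure D3:**
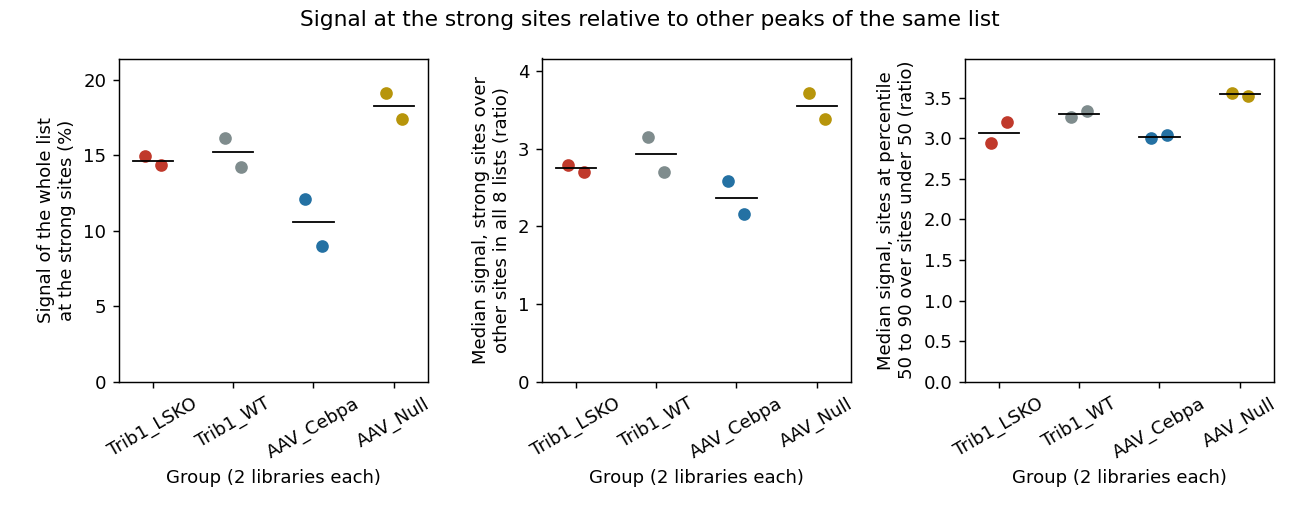
Signal of the selected sites by group, one point per library and a black line at the group mean: the left panel gives their percentage of the summed peak signal of the list, the middle panel the ratio of their median signal to that of the other sites called in all 8 lists, and the right panel the median ratio of sites at percentile 50 to 90 in every list to sites under 50 in every list. Both AAV_Cebpa libraries lie below both AAV_Null libraries in each panel, and the Trib1_LSKO and Trib1_WT points overlap in the first 2.

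The strongest peaks held similar numbers of tags whatever the depth of the library. The strongest peak held 328 and 352 tags in Trib1_LSKO, 357 and 383 in Trib1_WT, 372 and 397 in AAV_Cebpa, and 363 and 381 in AAV_Null, although depth varied up to 2.27 times. A 200 bp window has 400 positions over both strands, and the treatment of duplicate reads is not given in the sources used here. More than 300 tags were reached by 2 and 1 selected sites in Trib1_LSKO, 3 and 166 in Trib1_WT, 11 and 345 in AAV_Cebpa, and 6 and 33 in AAV_Null, with the highest numbers in the deepest libraries, AAV_Cebpa replicate 2 and Trib1_WT replicate 2. Away from it, the 5467 sites at percentile 50 to 90 in every list had a median signal 2.94 and 3.20 times that of the 1226 sites under 50 in every list in Trib1_LSKO, 3.27 and 3.34 times in Trib1_WT, 3.00 and 3.04 times in AAV_Cebpa, and 3.56 and 3.53 times in AAV_Null. Both AAV_Cebpa ratios were below both AAV_Null ratios there too. The part of this upper range in the ratios of the selected sites was not tested.

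Peak positions, which the selection did not use, varied less between libraries at the selected sites. The midpoint of a list's peak lay a median of 6 and 6 bp from the median midpoint of the other 7 lists in Trib1_LSKO, 6 and 5 bp in Trib1_WT, 6 and 7 bp in AAV_Cebpa, and 7 and 6 bp in AAV_Null. At the other sites called in all 8 lists, the medians were 9 and 9 bp in Trib1_LSKO, 9 and 7 bp in Trib1_WT, 9 and 9 bp in AAV_Cebpa, and 11 and 9 bp in AAV_Null. The mean difference was -2.88 bp, lower at the selected sites in 8 of 8 libraries (exact two-sided paired sign-flip permutation p = 0.00781, the smallest that 8 libraries allow). It was -1.63 bp, with the same exact p, against sites at percentile 50 to 90 in every list. The libraries share the genome and the sites, so this p measures only how steady the difference was over libraries. The other sites also had fewer tags, and the part of tag number in the precision of a midpoint was not tested.

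The selected sites were correspondingly narrow. Their joined width had a median of 224 bp, against 236 bp for the other sites called in all 8 lists, and the 8 midpoints spanned a median of 24 bp against 36 bp. The span was at most 20 bp at 36.2% of selected sites and 14.8% of the others, and over 100 bp at 50 selected sites (2.14%) and 5.38% of the others. At the selected sites, libraries of different groups lay a median of 7 to 8 bp apart in Trib1_LSKO against Trib1_WT and 8 to 9 bp in AAV_Cebpa against AAV_Null. Replicates lay 8 bp apart in Trib1_LSKO, 7 bp in Trib1_WT, 8 bp in AAV_Cebpa and 8 bp in AAV_Null. The called position of the strongest sites thus differed between groups by about as much as between replicates.

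**Figure D4:**
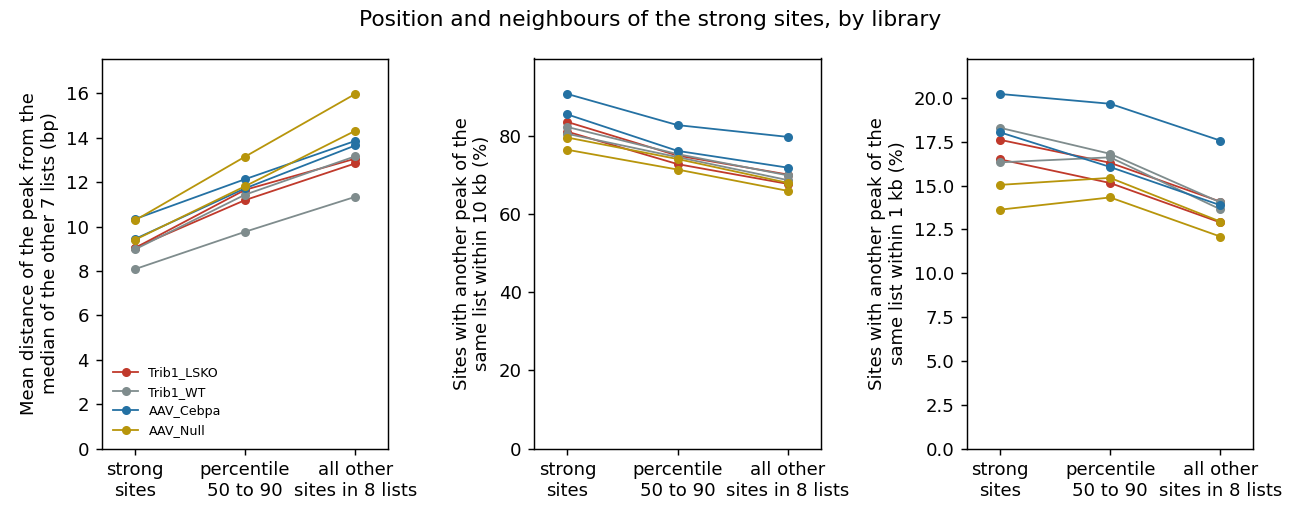
Position and spacing of peaks at the 2334 selected sites, at sites at percentile 50 to 90 in every list and at all other sites called in all 8 lists, with one line per library: mean distance of the midpoint from the other lists (left), and the percentages with another peak of the same list within 10 kb (middle) and 1 kb (right). Mean distances are shortest at the selected sites in all 8 libraries, and the percentage with another peak of the same list within 10 kb is highest there in all 8.

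More of the selected sites had another peak within 10 kb. Another peak of the same list was found within 10 kb of 76.4% to 90.7% of them over the 8 libraries, and of 65.9% to 79.7% of the other sites called in all 8 lists. The mean difference was 12.2 percentage points, higher at the selected sites in 8 of 8 libraries (exact two-sided paired sign-flip permutation p = 0.00781). As the libraries share the genome and the sites, each p here measures only how steady a difference was over libraries. Against sites at percentile 50 to 90 it was 7.20 points, again in 8 of 8 libraries with the same exact p. Within 1 kb, the shares were 13.6% to 20.2% at the selected sites and 12.1% to 17.6% at the others, a mean difference of 3.06 points with the same exact p. That closer difference was 0.663 points against the sites at percentile 50 to 90, higher in 5 of 8 libraries, with an exact sign-flip permutation p of 0.117. Within 500 bp the shares were small: 1.33% to 1.76% at the selected sites, 1.55% to 2.19% at the sites at percentile 50 to 90 and 1.19% to 1.73% at all others. They were lower at the selected sites than at the percentile 50 to 90 sites in 8 of 8 libraries, and 0.178 points higher than at all others on average.

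Among themselves, the selected sites had a median distance of 97371 bp to the nearest other selected site. Another lay within 1 kb of 73 sites (3.13%), within 10 kb of 409 (17.5%) and within 100 kb of 1189 (50.9%). Joined at gaps of at most 10 kb, the 409 sites formed 192 runs, of which 174 held 2 sites, 15 held 3 and 3 held more. Most strong sites close to another strong site were thus in pairs.

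The largest runs held 6 selected sites each, at chr1:90166407-90184288 and chr14:41909685-41929830, and the next held 4, at chr1:67150597-67169594. In the first of these runs, each site called in all 8 lists was a selected one (6 of 6), and in the second this was so for 6 of 7. The first run had the densest 10 kb of the genome, with 4 selected sites in chr1:90166407-90175970, and the densest 100 kb, with 9 selected sites of 11 called in all 8 lists in chr1:90109716-90184288. It also held the 2 leading sites of the ranking.

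Sites that appeared or disappeared with a treatment were sought near the selected ones. A site is called gained when both libraries of the treated group and neither library of its control had a peak, and lost in the reverse case. Of all sites, 3.15% were gained and 3.23% lost in Trib1_LSKO, and 19.5% were gained and 5.33% lost in AAV_Cebpa. A site gained in AAV_Cebpa lay within 10 kb of 1023 selected sites (43.8%) and of 34.3% of the other sites called in all 8 lists. A site gained in Trib1_LSKO lay within 10 kb of 242 selected sites (10.4%) and of 7.56% of the others. Within 1 kb, a site gained in AAV_Cebpa was found at 4.97% of selected sites and 4.27% of the others. A site gained in Trib1_LSKO was found within 1 kb of 0.514% of selected sites and 0.773% of the others, the reverse of the order at 10 kb.

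For lost sites the shares lay closer together. A site lost in AAV_Cebpa lay within 10 kb of 363 selected sites (15.6%) and of 14.98% of the others. That share was 16.7% at sites at percentile 50 to 90 in every list, above the selected ones. A site lost in Trib1_LSKO lay within 10 kb of 157 selected sites (6.73%) and of 6.94% of the others. These shares are descriptions without a test, and more of the selected sites have another peak of the same list within 10 kb.

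Chromosome X held few of the strongest sites. Of its 503 sites called in all 8 lists, 5 were selected (0.994%, 95% Wilson interval 0.425% to 2.31%), against 2329 of 23815 (9.78%) on the autosomes. Among single autosomes the share ran from 8.26% on chromosome 13 to 10.9% on chromosome 10. Interval and shares cover counting of sites only, and chromosome X was singled out after its values were seen. The lower signal was general on this chromosome: sites called in all 8 lists had a median percentile of 53.0 and 54.9 on X in Trib1_LSKO, 55.8 and 56.1 in Trib1_WT, 58.6 and 65.5 in AAV_Cebpa, and 57.0 and 58.7 in AAV_Null. On the autosomes the medians were 72.3 and 74.1 in Trib1_LSKO, 74.4 and 74.9 in Trib1_WT, 73.4 and 78.7 in AAV_Cebpa, and 71.1 and 72.5 in AAV_Null. The median signal on X was 0.603 to 0.704 times that on the autosomes over the 8 libraries. The sex of the mice is not given in the sources used here, and the part of the number of X chromosomes in these values was not tested.

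**Figure D5:**
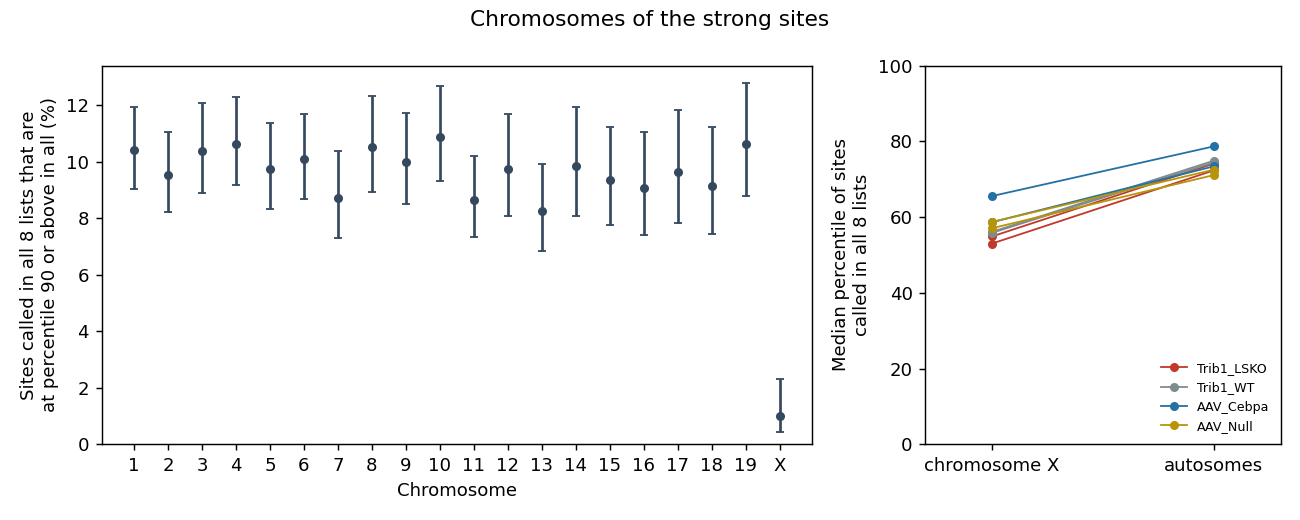
Left, percentage of the sites called in all 8 lists that were selected, by chromosome, with 95% Wilson intervals that cover counting of sites only; right, median percentile of the sites called in all 8 lists on chromosome X and on the autosomes, one line per library. Autosomes lie between 8.26% and 10.9%, chromosome X lies at 0.994%, and all 8 lines are lower on X.

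The 5 selected sites of chromosome X were chrX:57714758-57714979, chrX:67718700-67719003, chrX:95434436-95434654, chrX:166417064-166417283 and chrX:166418974-166419208. The last 2 lay close to the last X peak of any list, which ended at 166435237. One of them, chrX:166418974-166419208, ranked 2177 and 165 in Trib1_LSKO, 530 and 453 in Trib1_WT, 316 and 1226 in AAV_Cebpa, and 5 and 190 in AAV_Null, so its rank varied within groups as well as between them. Without chromosome X the rule selected 2270 sites, because percentiles taken over autosomal peaks alone are lower.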

How the data were processed

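Bowtie and HOMER with genome build mm9 are named in the submitters' processing notes, without versions. Whether an input library was used, how duplicates were treated and where the calling threshold lay is not given in the sources used here. The authors deposited 1 peak list per library, with a position and a signal value per 200 bp peak. Signal was used only within its own list, as a percentile (ties given their mean rank) or as a ratio of medians. Absolute depth is unknown, and tags were read from the step of the signal values within 0.051. Sites were made with Python 3.11.15, pandas 2.3.3, numpy 2.4.6 and scipy 1.17.1. The joining of sites, the rule and the step of the signal values were checked on simulated lists. The exact permutation tests were checked on short sets of numbers with known answers, and the other statistics were not checked in this way. In 3 cases a site held several peaks of 1 library, and the strongest was used. Members, reference classes and lists were chosen with earlier results of these data known. Named sites are the 10 with the highest lowest percentile, 3 on each side of the threshold, the 3 largest and 3 smallest group differences in each comparison and the densest run, and those on chromosome X were added after their values were seen. The reading with a whole group left out and the signal ratios were also added after the data were seen. Alternatives changed the window, the threshold, the reference sites, the list length, the chromosomes and the libraries. Planned work on genes and sequence needs an mm9 genome and annotation, which were not used here.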

Additional observations from a re-analysis of the deposited data

Results flagged for a closer look

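The held-out share at percentile 90 or above moved in opposite directions in the 2 experiments, which is a difference between groups that was not itself tested. With 7 choosing lists it was lower in both Trib1_LSKO libraries than in both Trib1_WT libraries (-3.33 percentage points) and higher in both AAV_Cebpa libraries than in both AAV_Null libraries (1.15 points). With both libraries of the group left out of the choice, the differences were -4.02 points for Trib1_LSKO minus Trib1_WT and 5.77 points for AAV_Cebpa minus AAV_Null. The opposite directions did not hold with the 4634 strongest peaks of each list, where both AAV differences were below 0 and the AAV groups overlapped. In the reading of single left-out lists they also did not hold without AAV_Cebpa replicate 1 (-3.85) or replicate 2 (-5.04). There 1 list fewer than 7 chose the sites, and the other AAV_Cebpa library had no replicate among its choosers.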

How the results depend on the processing

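Of 118 values recomputed under alternatives for 19 results, 7 reversed, 1 lost its call and 9 moved. The other 101 kept their direction and side of the test's threshold or, without a test, stayed within 1.5 times (counts) or the replicate or counting spread. For tested values this allows a change of size: the 1 kb neighbour difference of 3.06 was 0.178 within 500 bp. For held-out shares and signal ratios the exact permutation p cannot fall below 0.333. Their side of the threshold was thus fixed in advance, and only the sign was compared. The rule selected 1061 sites at percentile 95 and 5118 at percentile 80. The mean share of the sites chosen by empty-vector lists that stayed strong in AAV_Cebpa was 83.4% at percentile 80 and 72.0% with the 4634 strongest peaks. With those peaks, the AAV_Cebpa minus AAV_Null difference in held-out share was -3.70, and -5.01 with the whole group left out. Leaving out 1 library, with sites chosen again by 1 list fewer than 7, gave AAV_Cebpa minus AAV_Null held-out differences from -5.04 to 11.5, by which group lost a chooser. With the whole group left out they were 5.45 to 6.09, but there the sites were not chosen again. It moved the Trib1_LSKO minus Trib1_WT difference in signal ratio between -0.418 and 0.0289, which was 0.0395 against sites at percentile 50 to 90. Without 1 library, Trib1_LSKO lay above Trib1_WT at 444 to 566 selected sites (19.0% to 24.3%, against 26.6% to 31.1% of all sites called in all 8 lists) and below at 1124 to 1290 (48.2% to 55.3%, against 46.0% to 53.7%), since fewer libraries need to be in order. Against sites at percentile 50 to 90, the 1 kb neighbour difference was 0.663 (exact p = 0.117) and that for lost sites near AAV_Cebpa -1.13. The causes were not tested. With the replicate number as a block the held-out differences were again -3.33 and 1.15, with an exact sign-flip p of 0.5, the smallest that 2 pairs allow. The same-number deviations correlated at 0.120 in the first experiment and -0.0237 in the second. With 2 libraries per group, these values cannot show whether libraries of the same number were processed together. The labels give only the number. Other distances to genes and another window for sequence were not run. Limits: 2 libraries per group, unequal depth and list length, and tag counts that top out at 328 to 397.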
